A study of Mus musculus with 16 samples.

Results

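Blood vessels of the P7 mouse cortex were followed with 32 genes that mark endothelial cells, the lining of brain vessels, and pericytes and other mural cells, which wrap the capillaries and arterioles. The genes were chosen by name, and every name was found in the deposited table of 36930 entries. All 32 passed the filter on low values, which left 21183 genes. Of the 32, 24 are endothelial and 8 are pericyte or mural genes. The endothelial genes are 7 adhesion and identity genes, 4 receptor kinases, 3 tight junction genes, 6 barrier transporters and 4 transcription factors.

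The cortices came from 8 Avil-ChR2 and 8 ChR2-flfl pups on a C57BL6 background. Both genotypes carry a floxed channelrhodopsin-2 transgene, an ion channel opened by blue light, and the controls are Cre-negative litter mates. In Avil-ChR2 pups a Cre recombinase under the Advillin promoter removes the stop cassette in sensory neurons. The paper supposes that light sensitivity in the first week is mostly that of peripheral nociceptors, which lie outside the cortex sequenced here. Whether cells of the cortex also carried the channel was not tested. Pups of both genotypes received blue light on each day from P1 to P5, for 1 h a day, and tissue was taken at P7. No unexposed pups were analyzed here, so that the light, the channel and the Cre insertion cannot be told apart in the comparison of genotypes.

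The blood-brain barrier is built by brain endothelial cells, which seal their contacts with tight junctions, keep vesicle transport low and carry nutrients and drugs through a set of dedicated transporters. Vascular endothelial growth factor and angiopoietin receptors guide the growth of these vessels, Wnt ligands from neurons and glia induce barrier genes through beta-catenin, and platelet-derived growth factor from endothelial cells recruits pericytes. In mice the cortical capillary bed is still expanding in the first weeks after birth.

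Reads per pup lay between 47791532 and 48711134, except for ChR2-flfl replicate 3 with 30549126. The library labelled Avil-ChR2 replicate 4 is female in the sample labels and male in the authors' additional file, and its level of the Y-linked gene Ddx3y, 54.7 CPM, lay in the range of the male libraries. The other libraries labelled female had 1.71 to 2.57 CPM. The pups carry numbers 26 to 33 and 35 to 42, and each of these runs holds 4 pups of each genotype. What the runs stand for is not given in the sources used here. Over all 21183 genes, 2 genes (Avil and Mars) differed between genotypes with a Benjamini-Hochberg adjusted p under 0.05 in limma, which is 0.00944%. In these cortices Avil was higher in Avil-ChR2 pups, with a log2 difference of 5.23, and Mars was lower, with one of -0.149. Avil passed in every alternative fit, while Mars did not with median centring, with the replicate number as a block, within either run or in 10 of the 16 fits that left out 1 pup.

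The defining markers were present. The endothelial marker Cdh5 had 1032 to 1781 reads per pup and the pericyte marker Rgs5 had 2128 to 3442. The lowest read number of any of the 32 genes in any pup was 107 (Foxq1). The sequences before the start of 5 of the genes are shown because Emcn, Tek, Slco1a4, Vtn and Acta2 belong to the pairs that moved most closely together over the pups, as described further on. The 250 bases before the start are given 5′ to 3′ on the strand of the gene from RefSeq on GRCm38.p6. Each start is that of the first RefSeq window listed for the gene, and 4 of the 32 genes had more than 1 window. Emcn lies on chr3:137340828-137341077 and Tek on chr4:94739039-94739288, both on the plus strand. Slco1a4 lies on chr6:141856221-141856470 on the minus strand, Vtn on chr11:78498870-78499119 on the plus strand and Acta2 on chr19:34255374-34255623 on the minus strand. The deposited entry of Emcn begins at 137341061, and those of Slco1a4 and Acta2 begin at 141856283 and 34255585 on the minus strand. The windows of these genes thus reach into the deposited entry, and the start used for each lies inside it. Capitals mark the letters AGGAAG, a core of sites for ETS factors such as Erg, or AACAAT, a core of sites for SOX factors such as Sox17 and Sox18, on either strand.
Emcn: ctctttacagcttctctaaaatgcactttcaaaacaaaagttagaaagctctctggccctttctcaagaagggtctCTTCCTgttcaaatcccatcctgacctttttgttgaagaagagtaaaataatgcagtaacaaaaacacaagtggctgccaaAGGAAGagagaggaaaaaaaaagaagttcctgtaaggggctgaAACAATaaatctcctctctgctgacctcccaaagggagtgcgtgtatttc
Tek: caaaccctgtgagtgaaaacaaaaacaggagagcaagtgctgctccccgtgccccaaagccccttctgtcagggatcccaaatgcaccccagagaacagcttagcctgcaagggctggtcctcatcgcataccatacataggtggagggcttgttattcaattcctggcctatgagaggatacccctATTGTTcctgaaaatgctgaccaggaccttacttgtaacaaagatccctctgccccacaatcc
Slco1a4: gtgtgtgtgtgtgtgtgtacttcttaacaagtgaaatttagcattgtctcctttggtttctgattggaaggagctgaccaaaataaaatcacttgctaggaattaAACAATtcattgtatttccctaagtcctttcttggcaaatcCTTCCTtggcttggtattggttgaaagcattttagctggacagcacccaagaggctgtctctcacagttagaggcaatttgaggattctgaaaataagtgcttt
Vtn: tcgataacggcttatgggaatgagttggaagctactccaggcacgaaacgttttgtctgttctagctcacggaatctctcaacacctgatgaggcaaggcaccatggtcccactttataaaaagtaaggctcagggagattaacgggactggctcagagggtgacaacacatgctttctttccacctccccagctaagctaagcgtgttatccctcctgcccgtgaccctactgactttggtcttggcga
Acta2: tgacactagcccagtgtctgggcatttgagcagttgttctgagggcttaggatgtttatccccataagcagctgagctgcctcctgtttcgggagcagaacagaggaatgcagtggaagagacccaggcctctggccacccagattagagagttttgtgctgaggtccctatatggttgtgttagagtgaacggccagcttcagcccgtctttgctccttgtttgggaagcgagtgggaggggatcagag

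RefSeq windows were matched for 23 of the 32 genes. The others, Pecam1, Cdh5, Esam, Vwf, Foxq1, Sox17, Sox18, Pdgfrb and Higd1b, are only named. AGGAAG or its reverse complement CTTCCT occurred in 8 of the 23 windows (Eng, Emcn, Flt1, Tie1, Abcb1a, Abcg2, Slco1c1 and Slco1a4), which is 34.8%, beside 29.5% of all 32851 windows of the same length. AACAAT or ATTGTT occurred in 3 windows (Emcn, Tek and Slco1a4), which is 13.0%, beside 9.42% of all windows. The forkhead core TGTTTAC or GTAAACA occurred in Abcb1a, beside 3.17% of all windows. In the windows shown, AACAAT began 50 bases before the start used for Emcn and 145 bases before that used for Slco1a4. Its reverse complement lay 58 to 63 bases before the start used for Tek. The windows of Vtn and Acta2 held none of the capitalized letters.

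The mean levels over the 16 pups ranged from 3.58 CPM (Sox17) to 118 CPM (Tjp1). Per kilobase of the longest annotated transcript the highest level was that of Vtn, an adhesion glycoprotein made by brain pericytes, with 33.9 CPM per kb. It was followed by the thyroid hormone transporter Slco1c1 with 30.0, the tight junction claudin Cldn5 with 26.5 and the mural gene Higd1b with 19.1 CPM per kb. The lowest levels per length were those of Foxq1 (0.744), Sox17 (1.10) and Emcn (1.28 CPM per kb). Pericyte and mural genes thus took both high and low places, from 2.14 CPM per kb for Anpep to that of Vtn. Higd1b overlaps a stretch of the antisense gene Eftud2, Abcb1a overlaps Rundc3b, and Acta2 and Eng meet Stambpl1 and Fpgs. Each of these neighbors lies on the opposite strand, and the paper names a stranded library kit. Whether the strand was used in counting is not given in the sources used here, so that reads of these pairs may have been shared. Slco1a4 and Abcb1a have close relatives, of which Slco1a6 was at 1.69 and Abcb1b at 4.61 CPM.

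**Figure D1:**
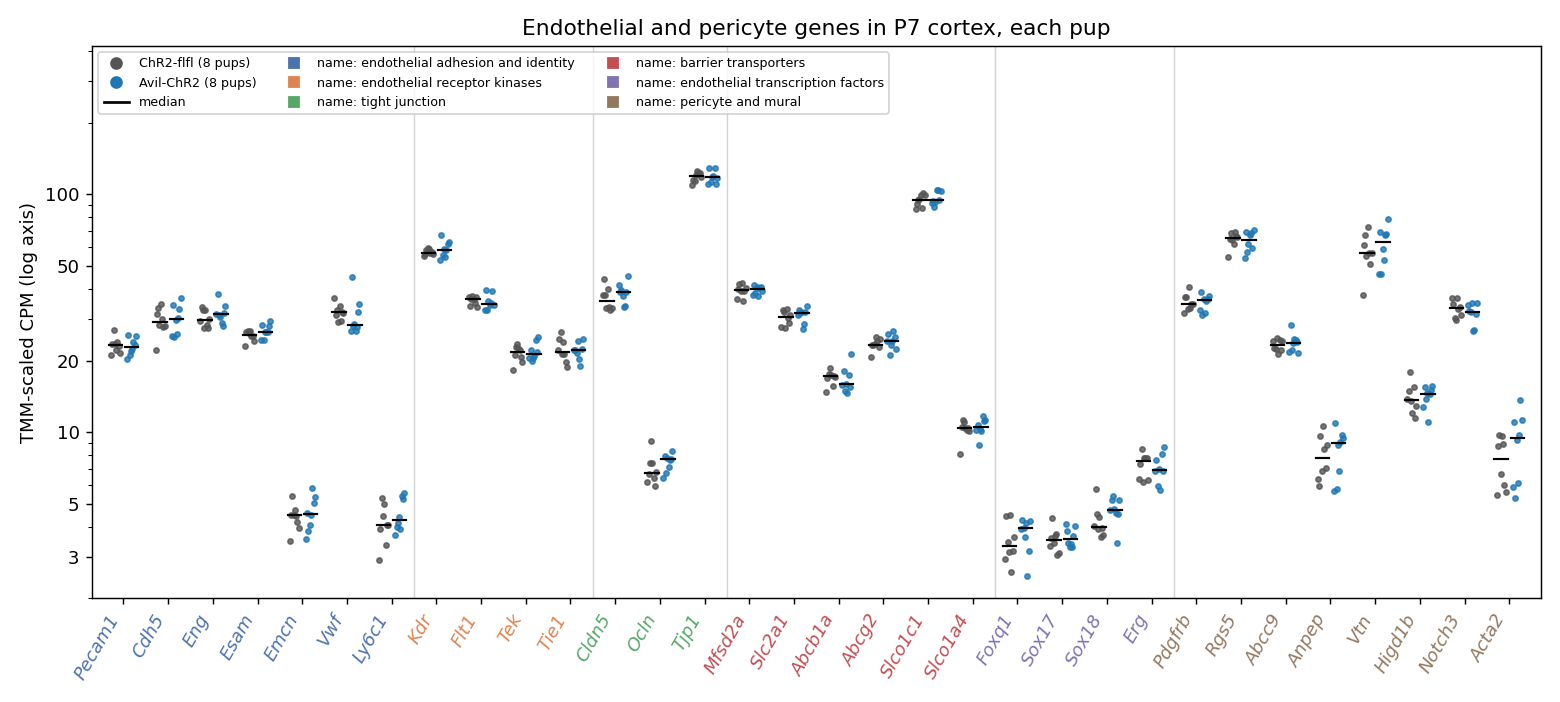
TMM-scaled CPM on a log axis for each of the 32 genes, with 1 point per pup, grey for ChR2-flfl and blue for Avil-ChR2, a black bar for the median of 8 pups, and names colored by role. The clouds of both genotypes overlap for every gene, from about 3.58 CPM for Sox17 to 118 CPM for Tjp1, and Acta2, Anpep and Vtn spread most.

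The comparison of genotypes asks whether vascular genes of the cortex at P7 differed in pups whose sensory neurons carried the light-gated channel. None of the 32 genes differed between genotypes: 0 of 32 had an adjusted p under 0.05 in limma, and 0 of 32 had an unadjusted p under 0.05, beside 5.41% of all genes (1.95% higher and 3.46% lower in Avil-ChR2 pups). The lowest adjusted p was 0.945. The values of the genotypes overlapped for every gene. The log2 differences, Avil-ChR2 minus ChR2-flfl, ranged from -0.070 (Notch3) to 0.209 (Acta2), and 22 of 32 were above 0, beside 51.4% of all genes. The median difference of the 32 genes was 0.037 on the log2 scale, beside 0.002 over all genes. In bulk tissue fewer cells of a type and less RNA per cell cannot be told apart, and this holds for each value of this kind.

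Among the adhesion and identity genes 5 were higher and 2 were lower in Avil-ChR2 pups, with a median log2 difference of 0.057. Esam, an immunoglobulin adhesion molecule of endothelial junctions on chr9:37528055-37538319, had the smallest p of the group. It was at 23.0, 25.7 and 26.7 CPM (lowest, median, highest) in ChR2-flfl pups and at 24.4, 26.4 and 29.4 CPM in Avil-ChR2 pups. The ranges overlapped, although 6 of 8 Avil-ChR2 values exceeded the mean of the controls. The log2 difference was 0.068 ± 0.042 (SE, n = 8 per genotype), with an adjusted p of 0.945 in limma and an exact permutation p of 0.135 (two-sided). Cdh5, the cadherin of endothelial adherens junctions, was at 22.1, 29.0 and 34.6 CPM in ChR2-flfl and at 25.2, 29.8 and 36.7 CPM in Avil-ChR2 pups. Its medians lay close together compared with the range of either genotype. Pecam1, which codes for the platelet and endothelial adhesion molecule CD31, showed a difference of -0.013, Eng, a co-receptor for TGF-beta ligands, one of 0.071, and Emcn, a sialomucin of capillaries and veins, one of 0.057. Ly6c1, a surface antigen of brain endothelium, had the widest interval of the group, from -0.099 to 0.393 on the log2 scale. Vwf, the clotting factor of larger vessels, was at 29.1, 31.8 and 36.5 CPM in ChR2-flfl and at 26.6, 28.2 and 44.7 CPM in Avil-ChR2 pups. A single pup, Avil-ChR2 replicate 2, set its upper end. Without this pup the difference moved from -0.062 to -0.14 on the log2 scale, with an unadjusted p of 0.0271 and an adjusted p of 0.859.

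Of the receptor kinases, Kdr (VEGF receptor 2) and Tek (the angiopoietin receptor Tie2) were higher, and Flt1 (VEGF receptor 1, a decoy for VEGF-A) and Tie1 were lower, by differences between -0.017 and 0.040. Kdr, on chr5:75932827-75979074, had both the smallest p and the highest level per length of the group. It was at 55.1, 56.8 and 59.3 CPM in ChR2-flfl and at 52.7, 58.5 and 67.5 CPM in Avil-ChR2 pups. The Avil-ChR2 pups lay on both sides of the narrow ChR2-flfl range. The log2 difference was 0.040 ± 0.042 (SE, n = 8 per genotype), with an adjusted p of 0.964 in limma and an exact permutation p of 0.387. The 95% intervals of all 4 kinases lay between -0.147 and 0.156.

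Of the tight junction genes Cldn5 and Ocln were higher and Tjp1 was lower. Cldn5, the main claudin of the barrier on chr16:18776847-18778262, was at 32.6, 35.7 and 44.0 CPM in ChR2-flfl and at 33.4, 38.7 and 45.3 CPM in Avil-ChR2 pups, a log2 difference of 0.080 ± 0.067 (SE, n = 8 per genotype; exact permutation p = 0.294). Ocln, which codes for occludin on chr13:100496504-100553689, was at 5.92, 6.74 and 9.16 CPM in ChR2-flfl and at 6.45, 7.67 and 8.32 CPM in Avil-ChR2 pups. The highest value of Ocln belonged to a control, ChR2-flfl replicate 4. Its log2 difference was 0.101 ± 0.079 (SE, n = 8 per genotype), with an adjusted p of 0.945 in limma and an exact permutation p of 0.245. Without ChR2-flfl replicate 4 it was 0.16, with an unadjusted p of 0.0287 and an adjusted p of 0.959. Tjp1, the scaffold ZO-1 that neurons and glia also express, was at 110, 119 and 125 CPM in ChR2-flfl and at 110, 118 and 129 CPM in Avil-ChR2 pups. Its interval from -0.081 to 0.075 was the narrowest of the 32 genes.

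The differences of the 6 barrier transporters lay between -0.024 (Abcb1a) and 0.042 (Abcg2), and all 6 of their 95% intervals lay within 0.25 of 0 on the log2 scale. Abcg2, the efflux pump BCRP on chr6:58584491-58692451, had the smallest p of the group. It was at 20.6, 23.3 and 25.1 CPM in ChR2-flfl and at 21.1, 24.2 and 26.7 CPM in Avil-ChR2 pups, with a log2 difference of 0.042 ± 0.048 (SE, n = 8 per genotype; exact permutation p = 0.411). Slco1c1, the carrier of thyroxine on chr6:141524378-141570177, was at 86.6, 94.9 and 101.2 CPM in ChR2-flfl and at 88.6, 94.3 and 105 CPM in Avil-ChR2 pups. Its medians lay close together, and its log2 difference was 0.036 ± 0.041 (SE, n = 8 per genotype; exact permutation p = 0.425). Mfsd2a, which carries lysophosphatidylcholine with docosahexaenoic acid and holds transcytosis down, was at 39.6 CPM in the median of ChR2-flfl and at 39.9 CPM in that of Avil-ChR2 pups. Its difference of 0.010 had an interval from -0.070 to 0.089. Slc2a1, the glucose transporter GLUT1, showed a difference of 0.037 and Slco1a4, an organic anion carrier, one of 0.040. Abcb1a, the P-glycoprotein pump, showed a difference of -0.024 with an interval from -0.164 to 0.116.

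Of the endothelial transcription factors Foxq1, Sox17 and Sox18 were higher and Erg was lower. Sox18, a SOX-F factor of vessel differentiation on chr2:181669837-181671640, was at 3.63, 3.99 and 5.74 CPM in ChR2-flfl and at 3.42, 4.73 and 5.37 CPM in Avil-ChR2 pups. The ChR2-flfl pups held the highest and the Avil-ChR2 pups the lowest value, while 7 of 8 Avil-ChR2 values exceeded the mean of the controls. The log2 difference was 0.155 ± 0.099 (SE, n = 8 per genotype), with an adjusted p of 0.945 in limma and an exact permutation p of 0.158. It was 0.22 without either ChR2-flfl replicate 2 or Avil-ChR2 replicate 6, with unadjusted p of 0.0215 and 0.0214 and adjusted p of 0.594 and 0.857. Foxq1, a forkhead factor of brain endothelium, showed a difference of 0.105, Sox17 one of 0.042 and Erg, an ETS factor that keeps endothelial identity, one of -0.034. These 4 genes were expressed at low levels, with means between 3.58 and 7.18 CPM.

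Of the 8 pericyte and mural genes 5 were higher and 3 were lower. Notch3, the Notch receptor of mural cells on chr17:32120893-32166852, had the smallest p of the group. It was at 29.7, 33.3 and 36.6 CPM in ChR2-flfl and at 26.6, 32.1 and 35.0 CPM in Avil-ChR2 pups. The log2 difference was -0.070 ± 0.062 (SE, n = 8 per genotype), with an adjusted p of 0.954 in limma and an exact permutation p of 0.329. Vtn, on chr11:78499120-78502325, was at 37.9, 56.6 and 72.8 CPM in ChR2-flfl and at 46.0, 63.2 and 79.0 CPM in Avil-ChR2 pups. The highest pup had 2.09 times the value of the lowest, and the log2 difference of 0.087 ± 0.122 (SE, n = 8 per genotype; exact permutation p = 0.552) was smaller than the spread between pups. Acta2, smooth muscle actin, had the largest difference of the 32 genes and the widest interval, from -0.185 to 0.604. It was at 5.44, 7.70 and 9.76 CPM in ChR2-flfl and at 5.28, 9.48 and 13.7 CPM in Avil-ChR2 pups, with 5 of 8 Avil-ChR2 values over the mean of the controls, a log2 difference of 0.209 ± 0.189 (SE, n = 8 per genotype) and an exact permutation p of 0.341. Pdgfrb, the receptor through which pericytes are recruited, showed a difference of -0.009, Rgs5, a regulator of G-protein signaling in pericytes, one of -0.022, and Abcc9, the sulfonylurea receptor subunit of pericyte potassium channels, one of 0.030. Anpep, the aminopeptidase CD13, and Higd1b showed differences of 0.049 and 0.014.

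**Figure D2:**
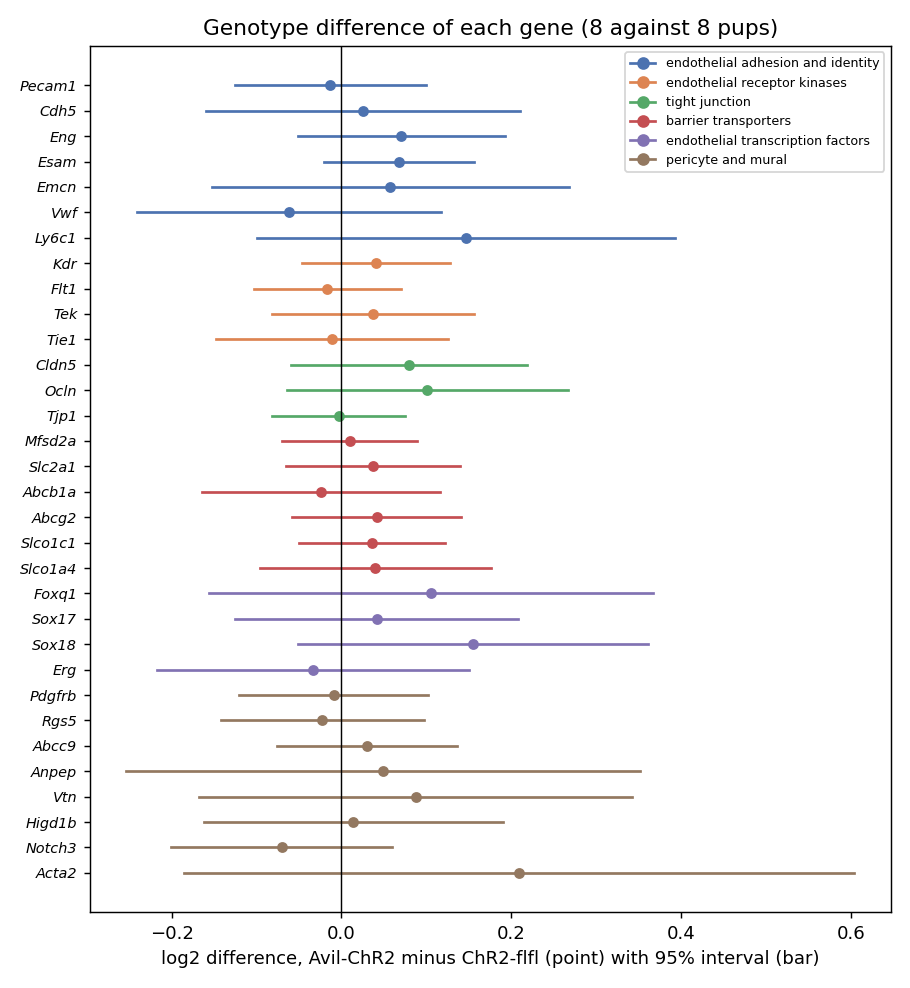
Log2 difference of each gene, Avil-ChR2 minus ChR2-flfl (points, 8 pups each), with its 95% interval (bars), colored by role. All 32 intervals hold 0, and 24 of them lie within 0.25 of 0, while that of Acta2 reaches 0.604.

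In all, 24 of the 32 intervals lay within 0.25 of 0 on the log2 scale and 31 lay within 0.5. The exception was Acta2. The mean log2 value over the 32 genes had a mean of 4.26 in the ChR2-flfl pups (SD of 0.095, n = 8) and of 4.30 in the Avil-ChR2 pups (SD of 0.114, n = 8). It ranged from 4.11 to 4.39 in ChR2-flfl and from 4.17 to 4.46 in Avil-ChR2 pups. The lowest pup was ChR2-flfl replicate 1 and the highest Avil-ChR2 replicate 8, and the means of the genotypes differed by 0.038. For the endothelial genes the difference was 0.039 and for the pericyte and mural genes 0.036. With the median over genes in place of the mean, the pericyte and mural difference was -0.014. Within pups 26 to 33 the mean over the 32 genes differed by 0.005 and within pups 35 to 42 by 0.071. In pups 26 to 33, 0 of 32 genes had an unadjusted p under 0.05 (3.23% of all genes). In pups 35 to 42, 2 of 32 did, which is close to the 5.52% of all genes. These were Emcn (0.25 ± 0.107, SE, n = 4 per genotype; unadjusted p = 0.0348 in limma) and Ocln (0.22 ± 0.091, SE, n = 4 per genotype; unadjusted p = 0.0327 in limma), both with an adjusted p of 0.88. In pups 26 to 33 their differences were -0.139 and -0.016. The sign of the genotype difference was opposite in the runs for 16 of 32 genes. The share of all genes with opposite signs was not computed, so this count is not read as a trait of the 32 genes.

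Further genes of the vessel wall were read from lists of signaling, transport and matrix genes. Of 123 such genes 117 passed the filter, 78 were higher and 39 were lower in Avil-ChR2 pups, and their median log2 difference was 0.031. Over all genes 51.4% were higher, and each count of higher genes in a list stands beside this share. Genes of a list can deviate together from pup to pup, so that these counts are not of independent genes and were not tested. An adjusted p under 0.05 was reached by 0 of 117 and an unadjusted p under 0.05 by 3, all lower, beside 5.41% of all genes. These were Lrp6, a Wnt co-receptor (56.2 ± 3.85 against 52.2 ± 1.46 CPM, SD, n = 8), Insr, the insulin receptor (73.0 ± 4.99 against 68.3 ± 1.32 CPM, SD, n = 8), and Bmpr2, a receptor for bone morphogenetic proteins (280.0 ± 28.8 against 253.8 ± 14.4 CPM, SD, n = 8). Their adjusted p were 0.825, 0.833 and 0.841 in limma. Each of them is also expressed outside vessels. Of the VEGF and angiopoietin ligands and co-receptors 4 of 12 were higher, and Nrp1, a VEGF co-receptor, showed a difference of -0.052. Of the Wnt barrier genes 9 of 14 were higher. Reck, which helps the receptor to read Wnt7 ligands, was at 13.0 ± 1.37 and 11.8 ± 1.60 CPM (SD, n = 8), and Wnt7b at 52.0 ± 7.47 and 57.0 ± 7.76 CPM (SD, n = 8), in ChR2-flfl and Avil-ChR2 pups. Of the junction and permeability genes all 10 that were tested were above 0, with a median of 0.036, and of the leukocyte adhesion genes all 5, with a median of 0.067, but 0 of these 15 had an unadjusted p under 0.05. Cd34, a sialomucin of endothelium, came nearest with 26.6 ± 1.60 and 28.3 ± 1.74 CPM (SD, n = 8). Basement membrane genes had a median of -0.042 (4 of 10 higher), other pericyte genes one of 0.032 (8 of 12 higher) and smooth muscle genes one of 0.094 (7 of 8 higher). Angpt2, Cav1, Cav2 and Sdpr are listed without reads in all 16 pups and Gja4 in 1 pup. Such an entry can be a failed assignment of reads and says nothing of the level of these genes.

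Sex was taken from the labels. Between sexes 0 of 32 had an adjusted p and 0 of 32 an unadjusted p under 0.05 in limma, beside 0.0425% and 4.46% of all genes (2.12% higher and 2.33% lower in females). The 5 genes with the smallest p were Pecam1 (female minus male 0.104 ± 0.051 on the log2 scale, SE), Sox18 (0.190 ± 0.093), Rgs5 (0.108 ± 0.055), Tie1 (0.121 ± 0.062) and Higd1b (0.149 ± 0.081), all with an adjusted p of 0.988 in limma. With the sexes of the additional file, which differ for Avil-ChR2 replicate 4, Pecam1 (0.117, unadjusted p = 0.0253) and Rgs5 (0.114, unadjusted p = 0.0443) passed the unadjusted threshold, beside 3.46% of all genes, and none passed the adjusted one. Without this pup 1 of 32 passed the unadjusted threshold, Pecam1 (0.116, unadjusted p = 0.0367), beside 789 of 20894 genes. For the interaction of genotype and sex 0 of 32 had an unadjusted p under 0.05 (4.31% of all genes, 2.43% higher and 1.87% lower), and 0 of 32 an adjusted one (0% of all genes). With the other source of sexes this was 1 of 32, Higd1b (-0.327, unadjusted p = 0.0408), beside 6.23% of all genes. Without Avil-ChR2 replicate 4 it was 0 of 32, beside 979 of 20894 genes.

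Between the runs of pup numbers 12.5% of all genes had an unadjusted p under 0.05 in limma (5.76% higher and 6.74% lower in pups 35 to 42) and 0.123% an adjusted one. Of the 32 genes, 2 had an unadjusted p under 0.05 and 0 an adjusted one. Slco1c1 was at 91.9 ± 3.03 CPM (SD, n = 8) in pups 26 to 33 and at 99.1 ± 5.78 CPM (SD, n = 8) in pups 35 to 42, a log2 difference of 0.107 with an unadjusted p of 0.0054 and an adjusted p of 0.195. Sox18 moved the other way, from 4.77 ± 0.637 to 4.17 ± 0.590 CPM (SD, n = 8), a log2 difference of -0.196 with an unadjusted p of 0.0421 and an adjusted p of 0.376. Sexes were unequally spread over the runs, with 6 females and 2 males by the labels in pups 26 to 33 and 3 females and 5 males in pups 35 to 42. With sex and run in the same fit, added after these values were seen, the run difference of Sox18 was -0.15 (unadjusted p = 0.142) and its sex difference 0.13 (unadjusted p = 0.184), and that of Tie1 between sexes was 0.086 (unadjusted p = 0.203). In that fit 4 of 32 genes had an unadjusted p under 0.05 between runs, all higher in pups 35 to 42 (Rgs5, Slco1c1, Vtn and Emcn), beside 11.9% of all genes. Between sexes 2 of 32 did, Rgs5 (0.17, unadjusted p = 0.0013) and Pecam1 (0.13, unadjusted p = 0.0241), both higher in females by the labels, beside 4.23% of all genes. The labels count Avil-ChR2 replicate 4 as female although its Ddx3y level lay in the male range. The joint fit was not run with the sexes of the additional file. No gene of the 32 had an adjusted p under 0.05 in this fit, and the lowest was 0.176 between runs and 0.895 between sexes.

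The coefficient of variation within genotypes was 9.70% in the median of the 32 genes. Counting error alone would give a coefficient of 2.99% in the median. On the log2 scale the SD within genotypes had a median of 0.142, beside 0.0992 over the 15137 genes whose log2 values averaged 0 or more. The most variable genes were Acta2 (SD of 0.441), Anpep (0.333) and Vtn (0.286), and the least variable were Mfsd2a (0.076) and Tjp1 (0.079). By role the median SD was highest for the transcription factors (0.200) and the adhesion and identity genes (0.197), followed by the pericyte and mural genes (0.164), among which Abcc9 (0.107) and Pdgfrb (0.116) varied least.

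Many of the 32 genes deviated in the same direction from pup to pup. Over the 496 pairs of the 32 genes, the median Pearson r of the deviations from the genotype mean was 0.386 over 16 pups, and 180 pairs had an r above 0.5. Over the 114556816 pairs of all 15137 genes the median was -0.003, and 7.09% had an r above 0.5. The pairs share libraries and scaling, and this is a description without a test. Endothelial genes paired with pericyte or mural genes had a median r of 0.429, compared with 0.379 among endothelial genes and 0.314 among pericyte and mural genes. The closest pair was Cdh5 and Vtn with an r of 0.98, followed by Cdh5 and Esam (0.92), Esam and Vtn (0.91), Cdh5 and Pdgfrb (0.89), Cdh5 and Acta2 (0.89), and Emcn and Tek (0.87). Within the runs the r of Cdh5 and Vtn was 0.996 and 0.961. ChR2-flfl replicate 1 was lowest for both, with 22.1 CPM of Cdh5 and 37.9 CPM of Vtn, and Avil-ChR2 replicate 8 was highest with 36.7 and 79.0 CPM. Cdh5 and Vtn lie on different chromosomes and code for proteins of different cell types. Not all genes took part: the median r with the other 31 genes was 0.62 for both Cdh5 and Vtn, 0.57 for Slco1a4 and 0.56 for Esam, but 0.009 for Notch3, -0.037 for Abcc9, 0.077 for Foxq1 and 0.10 for Sox18. The lowest r of any pair was that of Cldn5 and Abcc9 with -0.50.

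**Figure D3:**
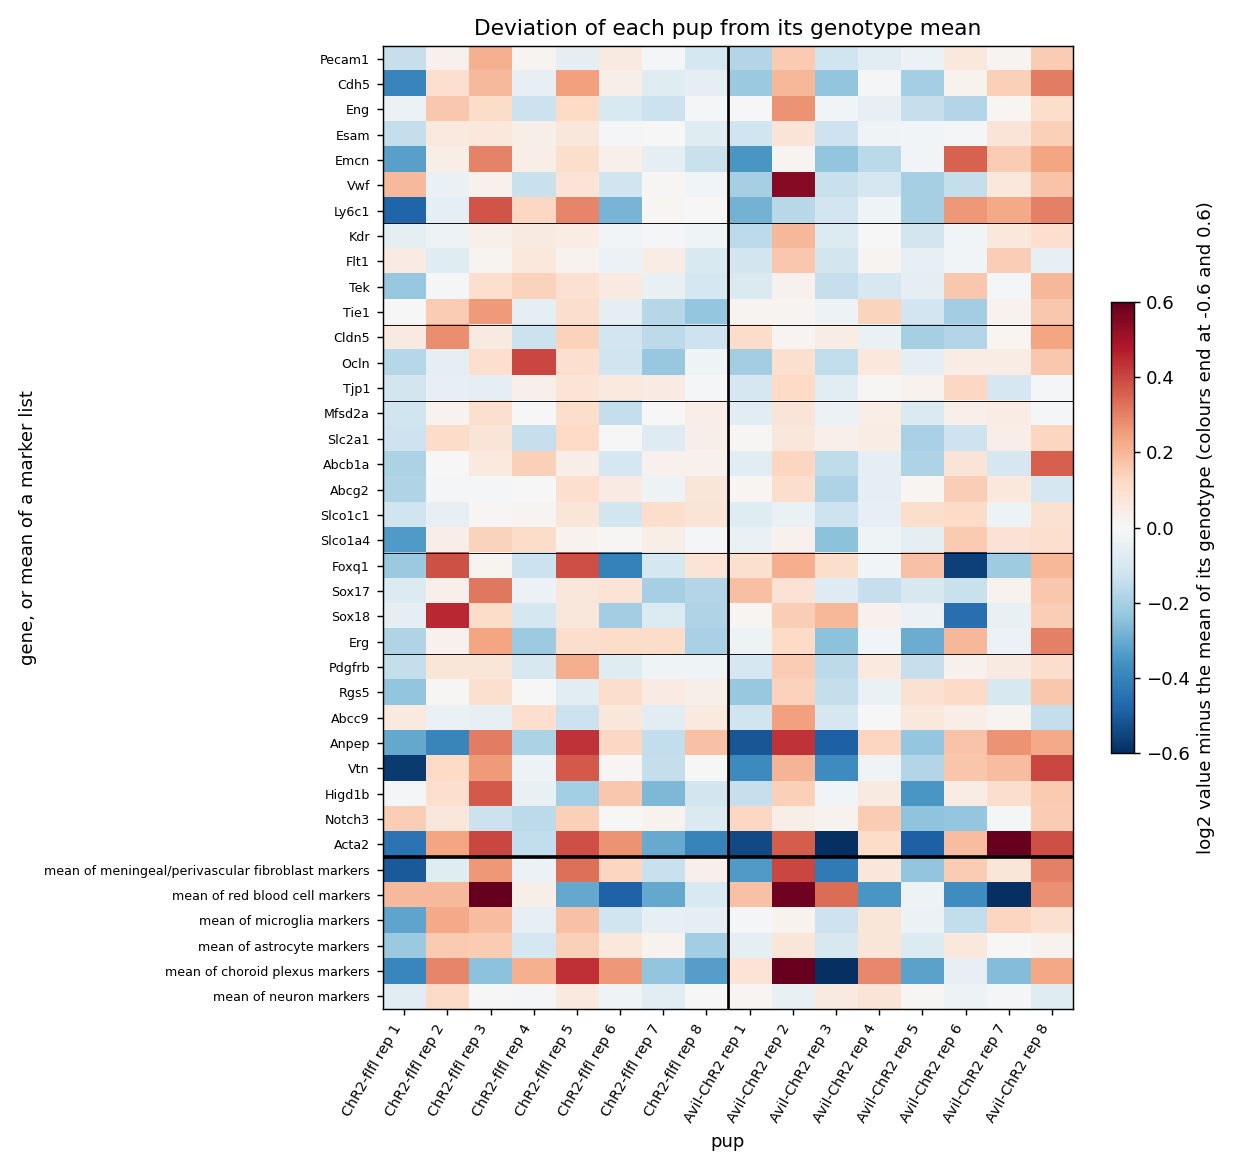
Log2 value of each gene in each pup minus the mean of its genotype, with the means of 6 marker lists of other cell types in the lower rows, from blue (below the mean) to red (above). ChR2-flfl replicate 1 and Avil-ChR2 replicates 1 and 3 are blue and ChR2-flfl replicates 3 and 5 and Avil-ChR2 replicates 2 and 8 red for Cdh5, Vtn and Acta2 and for the fibroblast markers alike.

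Of 12 pairs taken from the roles of the genes, 4 had an adjusted p under 0.05 (permutation of pups within genotype, 100000 resamples, two-sided, adjusted over the 12 pairs). Pups were permuted across both runs, and the share of all gene pairs that would pass was not computed. Pecam1 and Rgs5, an endothelial and a pericyte gene, had an r of 0.80 (rho = 0.83, adjusted permutation p = 0.00888 for r and 0.0042 for rho). Without the 2 pups farthest from the median of Pecam1 the r was 0.78, and within the runs it was 0.96 and 0.55. Pecam1 and Cdh5 had an r of 0.76 (rho = 0.75, adjusted permutation p = 0.0106 and 0.0137), 0.72 without 2 pups, and 0.92 and 0.52 within the runs. Both pairs passed in every fit that left out 1 pup. Kdr and Flt1, the VEGF receptors, had an r of 0.72 (rho = 0.66, adjusted permutation p = 0.037 and 0.049), but 0.49 without 2 pups, and 0.89 and 0.39 within the runs. This pair did not pass without any one of Avil-ChR2 replicates 1, 2, 3, 4 and 6 and ChR2-flfl replicate 4, with adjusted permutation p between 0.0577 and 0.168. Slco1c1 and Slco1a4, members of one carrier family, had an r of 0.58 (rho = 0.55, adjusted permutation p = 0.0476 and 0.112), 0.53 without 2 pups, and 0.96 in pups 26 to 33 but 0.017 in pups 35 to 42. It did not pass without any one of Avil-ChR2 replicates 1, 2, 3, 4, 6 and 8 and ChR2-flfl replicates 1, 4, 5 and 7, with adjusted permutation p between 0.0527 and 0.241. The other 8 pairs had adjusted permutation p between 0.24 and 0.944. Tek and Tie1, which form a receptor complex, had an r of 0.21, Pdgfrb and Rgs5 one of 0.40, Sox17 and Sox18 one of 0.40, and Cldn5 and Ocln one of 0.021. In 4 of the 12 pairs the sign of r differed between the runs. In pups 26 to 33 and then 35 to 42, Cldn5 and Ocln had an r of -0.73 and 0.81, Pdgfrb and Rgs5 of 0.86 and -0.41, Abcb1a and Abcg2 of 0.89 and -0.41, and Pdgfrb and Notch3 of -0.11 and 0.72.

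**Figure D4:**
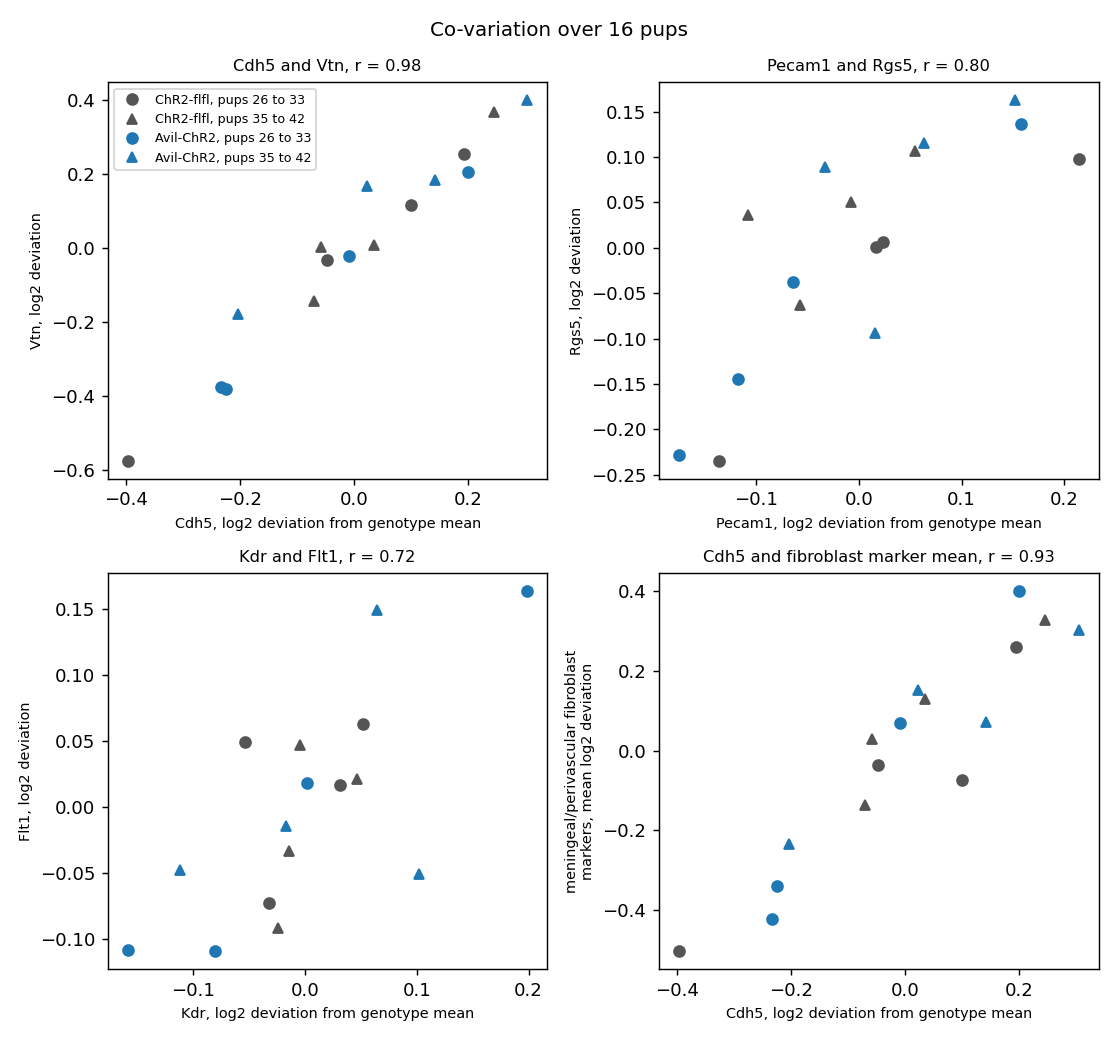
Log2 deviations from the genotype mean of Cdh5 and Vtn, Pecam1 and Rgs5, Kdr and Flt1, and Cdh5 and the mean of the meningeal and perivascular fibroblast markers, with 1 point per pup, grey for ChR2-flfl, blue for Avil-ChR2, circles for pups 26 to 33 and triangles for pups 35 to 42. The points of Cdh5 and Vtn lie close to a line (r = 0.98), as do those of Cdh5 and the fibroblast markers (r = 0.93), while those of Kdr and Flt1 scatter more (r = 0.72).

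Markers of other cell types moved with many of these genes. For each list of markers the mean log2 value per pup was set against each of the 32 genes, and the 192 tests were adjusted together. Markers of meningeal and perivascular fibroblasts, such as Col1a1, Dcn and Lum, correlated with 16 of the 32 genes (adjusted permutation p under 0.05), with a median r of 0.64, beside a median of -0.024 over 15137 genes. Of those 15137 genes, 7.19% had an r above 0.5. The share of all genes under the adjusted threshold was not computed for this or any other marker list. Among the 32 genes the r was highest for Vtn (0.94), Cdh5 (0.93), Anpep (0.91), Pdgfrb (0.86) and Acta2 (0.83), and was 0.90, 0.89, 0.91, 0.80 and 0.78 without the 2 pups farthest from the median of the markers. The adjusted permutation p was 0.00096 for Vtn and Cdh5, whose unadjusted p of 1e-05 was the smallest that 100000 permutations can give, and 0.00128 for Anpep. It held within both runs for these 5 genes, with r from 0.90 to 0.95 in pups 26 to 33 and from 0.79 to 0.97 in pups 35 to 42. For Rgs5 it did not, with an r of 0.96 in pups 26 to 33 and -0.040 in pups 35 to 42. Over all pups r was lowest for Notch3 (-0.049), Sox18 (-0.021), Cldn5 (0.10) and Foxq1 (0.10). Besides Rgs5, the sign differed between the runs for Notch3 (-0.48 and 0.66), Cldn5 (-0.19 and 0.79), Slco1c1 (0.83 and -0.15) and Abcc9 (0.54 and -0.54). The number of genes that passed fell from 16 to 6 without ChR2-flfl replicate 1, whose fibroblast marker mean of 4.92 was the lowest, and to 10 without Avil-ChR2 replicate 3. It was 9 with median centring of each pup. Cdh5, Kdr, Pdgfrb, Anpep, Vtn and Acta2 passed in every fit that left out 1 pup. The summed level of the 10 fibroblast markers was 450 to 786 CPM in ChR2-flfl and 470 to 838 CPM in Avil-ChR2 pups. Of the 9 that passed the filter 6 were higher in Avil-ChR2 pups, beside 51.4% of all genes, and Ogn is listed without reads in all pups. Highest among the 10 were Igf2, with means of 215 and 218 CPM in ChR2-flfl and Avil-ChR2 pups, and Pdgfra, with 122 CPM in both. The part of fibroblasts in the values of the 32 genes was not tested. With the fibroblast marker mean as a covariate, an analysis added after these values were seen, 0 of 32 genes had an unadjusted p under 0.05 between genotypes, beside 1223 of 21183 genes.

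Astrocyte markers correlated with 9 of the 32 genes, led by Erg (r = 0.75) and Cdh5 (r = 0.74), and microglia markers with 6, led by Cdh5 (r = 0.75) and Esam (r = 0.72). The median r was 0.44 for each of these lists, beside -0.007 and 0.02 over all genes, of which 5.27% and 7.51% had an r above 0.5. Without ChR2-flfl replicate 1 the counts were 2 and 1, and with median centring the microglia count was 3. Red blood cell, choroid plexus and neuron markers correlated with 0 of 32 genes at this threshold, with a median r of 0.049, 0.39 and -0.025. Over 15137 genes the medians for these lists were -0.013, 0.0 and 0.003, and 2.07%, 2.84% and 9.78% had an r above 0.5. The summed red blood cell markers lay between 227 and 465.7 CPM in ChR2-flfl and between 237 and 358 CPM in Avil-ChR2 pups, and 6 of 6 tested were lower in Avil-ChR2 pups, of which Slc4a1 had an unadjusted p of 0.033 and an adjusted p of 0.884 in limma. Among the markers of the other lists Slc17a7, a neuronal glutamate transporter (0.115, unadjusted p = 0.030), and Ttr of the choroid plexus (1.33, unadjusted p = 0.049) were under the unadjusted threshold, both higher in Avil-ChR2 pups, with adjusted p of 0.884 and 0.911 in limma. Choroid plexus markers were near absent, with a sum between 2.86 and 5.19 CPM. Of these, Ttr had 0 reads in 2 pups and Kcnj13 is listed without reads in all pups. The summed astrocyte markers were 1565 to 1970 CPM in ChR2-flfl and 1783 to 2020 CPM in Avil-ChR2 pups, with 7 of 8 higher, and the summed microglia markers 260 to 350 and 256 to 317 CPM, with 8 of 9 higher. Neuron markers were at 4212 to 4742 and 4361 to 4682 CPM, with 7 of 8 higher in Avil-ChR2 pups. Over all genes 51.4% were higher in Avil-ChR2 pups. Markers of a list can deviate together, so that these counts of higher or lower markers are not of independent genes and were not tested. The part of these cells in the vascular values was not tested.

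**Figure D5:**
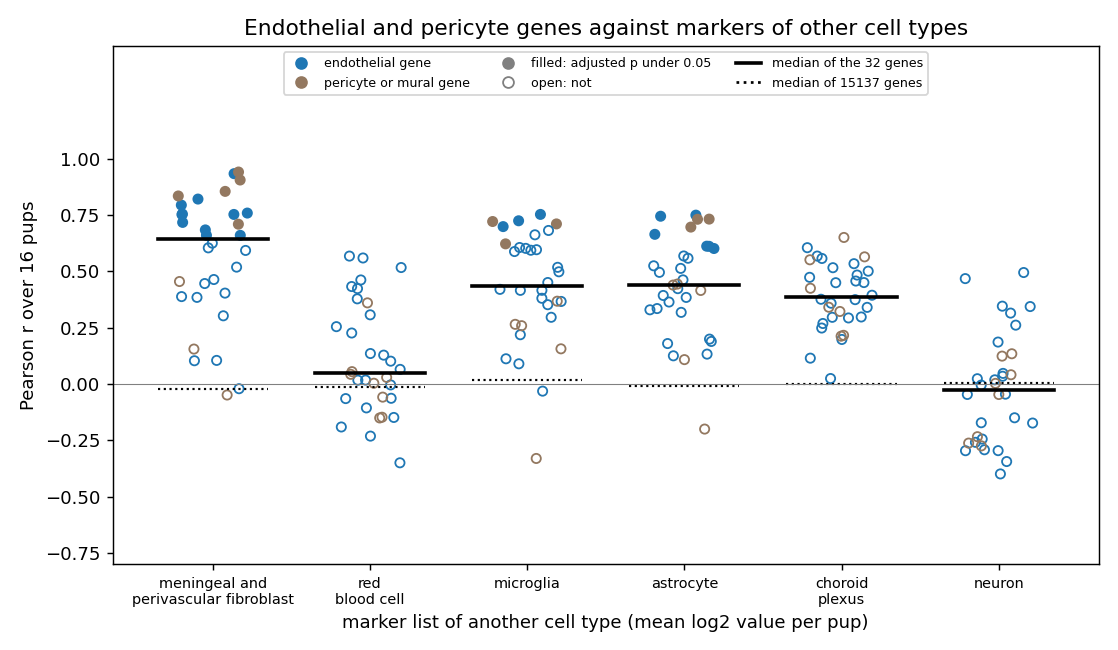
Pearson r over 16 pups between each of the 32 genes (points, blue for endothelial, brown for pericyte or mural, filled where the adjusted p was under 0.05) and the mean of each of 6 marker lists, with the median of the 32 genes (solid line) and of 15137 genes (dotted line). The genes lie highest against the meningeal and perivascular fibroblast markers, with a median of 0.64, and around 0 against red blood cell and neuron markers.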

How the data were processed

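Cortical mRNA of 16 pups was sequenced. Per the paper's methods, the authors aligned the reads to mm10 (GRCm38) with SeqMan NGen, displayed gene-wise mapped reads in ArrayStar and applied TMM scaling from edgeR. The deposited values are CPM on a linear scale, 1 column per pup, neither pooled nor filtered. How reads of overlapping genes were counted is not given in the sources used here. The size of 1 read in CPM gave the depth: with up to 20000 reads, 100% of 374510 values lay within 0.05 of a whole number. Counting error is small at this depth, and every comparison was set against the spread from pup to pup.

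Values were log2 transformed, and those missing or under -5 were replaced by -5 (4432 of 338928 values, none of them of the 32 genes). Genes with at least 12 of 16 pups above -5 were kept. Genotypes, sexes and runs of pup numbers were compared with limma 3.58.1 in R 4.3.3 (intensity trend, Benjamini-Hochberg adjustment over all genes), and for genes given in full by an exact permutation test over all 12870 splits. Correlations used deviations from genotype means and 100000 permutations within genotype. Transcript lengths came from GENCODE. Columns of the authors' own comparisons (fold changes and p-values) were not used. The fits were tested on simulated data, and other steps ran in Python 3.11.15.

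Given in full are, in each role, the gene with the smallest p and that with the highest level per length, and from other lists at most 3 genes with the smallest p. Cdh5, Vwf, Tjp1 and Acta2, the other genes named from lists, the closest pairs, the motifs and the windows shown were picked after their values were seen. The genes and lists were chosen with earlier results of these data known. Alternatives varied filter, pseudocount, scaling, missing values, covariates, runs and single pups. Litters are not given, so that p-values measure the spread between these pups.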

Additional observations from a re-analysis of the deposited data

Results flagged for a closer look

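In 5 of the 64 groups of 8 pups (32 genes in each of 2 genotypes) the highest or lowest pup was apart from the nearest by more than 0.526 of the range of the group, and chance gives about 1 in 20 groups. Vwf was at 44.7 CPM in Avil-ChR2 replicate 2, with the next pup at 34.5 CPM. Ocln was at 9.16 CPM in ChR2-flfl replicate 4, with the next pup at 7.44 CPM. Slco1a4 was at 8.06 CPM in ChR2-flfl replicate 1, with the next pup at 10.1 CPM. Sox18 was at 5.74 CPM in ChR2-flfl replicate 2, with the next pup at 4.53 CPM, and at 3.42 CPM in Avil-ChR2 replicate 6, with the next pup also at 4.53 CPM.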

How the results depend on the processing

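None of the 32 genes had an adjusted p under 0.05 between genotypes, sexes or runs or for the interaction under any alternative that was run. The lowest was 0.0502 in limma, for Slco1c1 between runs without ChR2-flfl replicate 6 (log2 difference of 0.132, unadjusted p = 0.000226). The test on recovered reads was not run. The number of genes with an unadjusted p under 0.05 between genotypes was 2 in pups 35 to 42, beside 5.52% of all genes, and 0 to 1 with single pups left out (1 without Avil-ChR2 replicates 2 or 6 or ChR2-flfl replicates 2 or 4). In the same order, the fits with 1 gave 1171 of 20892, 1214 of 20925, 1565 of 20896 and 1058 of 20893 genes over all genes. Between runs it was 1 with no filter, beside 2863 of 28238 genes, and 1 to 6 with single pups left out. It was 6 without Avil-ChR2 replicate 2 or ChR2-flfl replicate 3, beside 2797 and 2622 of 20892 genes. Between sexes it was 2 with the other source of sexes, beside 3.46% of all genes, and 0 to 3 with single pups left out. It was 3 without Avil-ChR2 replicates 5 or 7, beside 1035 of 20925 and 938 of 20910 genes. For the interaction it was 1 with median centring and 1 with the other source of sexes, beside 808 of 21183 genes and 6.23% of all genes. With single pups left out it was 0 to 5, and 5 without Avil-ChR2 replicate 1, beside 1141 of 20884 genes. Of the 12 pairs, 2 passed with median centring and 2 to 4 with single pups left out. Genes correlated with fibroblast markers numbered 9 with median centring and 6 to 16 with single pups left out, those with microglia markers 3 and 1 to 9, those with astrocyte markers 2 to 11 and those with choroid plexus markers 0 to 2 with single pups left out, and 1 gene passed for red blood cell markers with log2(value + 1). With sex by the labels and run in the same fit, genes with an unadjusted p under 0.05 numbered 4 between runs and 2 between sexes, beside 11.9% and 4.23% of all genes. Of the genotype differences of all 32 genes, 10 had the opposite sign in pups 26 to 33 and 13 changed sign without some single pup. Among the genes given by rule these were Notch3 (0.031) and Ocln (-0.016), both in pups 26 to 33. Shares of all genes with such changes of sign were not computed. The r of Cldn5 and Ocln was -0.10 with median centring and -0.12 to 0.27 with single pups left out. The cause of these changes was not tested.

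Replicate numbers were shared by name only: same-numbered pups correlated with r from -0.34 to 0.39, over 0.1 in 3 of 8 pairs, and 1 of 8 ChR2-flfl pups correlated best with its own number. With the replicate block 0 of 32 genes were called, and it changed no call among them, while over all genes the calls went from 2 to 1 (Mars was lost), with a log2 difference for Esam of 0.068 (adjusted p of 0.944 in limma). Among the values of single genes and pairs, 475 kept their direction and their side of the threshold, 18 lost the call and 8 turned sign. ChR2-flfl replicate 3 was shallower, and the lowest read number of any gene, 107, limits the precision of Foxq1.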
